A study of Drosophila melanogaster with 12 samples.

Results

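Whole male fruit fly larvae (Drosophila melanogaster, wild-type strain Canton-S) were compared at the wandering stage of the third instar after growing up on high sugar food or on control food. The comparison used 6 of the 12 Affymetrix arrays of the series, chosen by the labelled stage and diet and not by any measured value. They were 3 biological replicates of larvae kept from hatching on Bloomington Semi-Defined Food with 1 M sucrose, and 3 of larvae kept on the same food with 0.15 M sucrose in place of glucose. Both groups lived at 25 C and were collected from the top of the vial when their guts held only part of the blue food dye, so they were matched by behaviour and gut colour. The sources used here do not give their age in hours or the number of larvae per array. The other 6 arrays held feeding larvae from the middle of that instar (mid-L3), reared on control food and then moved for 12 h to fresh food with 1 M or 0.15 M sucrose, and they serve here only to show where the wandering response differs. In whole larvae, fewer cells of a type and less RNA per cell cannot be told apart.

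Dietary sucrose is cut in the midgut and its sugars pass into the circulation, where the fat body, the insect counterpart of liver and adipose tissue, stores them as glycogen and triglyceride or sends them out as trehalose. The transcription factor Mondo, partner of bigmax and counterpart of the mammalian carbohydrate response factor ChREBP, is activated by sugar, and sugarbabe (sug) is one of its targets. At the wandering stage larvae stop feeding, leave the food and prepare to pupariate, under pulses of the steroid ecdysone.

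The median deposited intensity per array was 80.6 to 83.8. Arrays of one diet correlated at Spearman's rho of 0.959 to 0.985 and arrays of different diets at 0.934 to 0.967, so the lowest value between replicates lay below the highest value between diets. The first principal component held 56.3% of the variance and separated the diets, with scores of 18.4, 7.25 and 25.4 for high sugar arrays 1 to 3, against -18.4, -12.2 and -20.6 for control arrays 1 to 3. High sugar array 2 lay nearest to the control arrays on it and also stood apart on the second component (19.2% of the variance), at -20.6. It was the array farthest from its group mean, with a standard deviation over genes of 0.23 on the log2 scale, against 0.14 to 0.20 for the other 5. Of 89 marker genes of the main larval tissues and of male dosage compensation, 75 passed the filter on dim genes, and the lowest value of any of these on any array was 42.9. The summed intensity of 6 fat body markers was 44763 to 47046 in high sugar larvae and 43548 to 47514 in control larvae. That of 4 dosage compensation genes was 501 to 579 and 527 to 613, so the diets overlapped in both sums. By the test described below, 6 of the 75 markers were called, against 2.54% of all tested genes. Of the 6 fat body markers 1 was called higher, against 1.28% of all tested genes, and none of the 4 dosage compensation genes was called.

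Changes are differences of log2(intensity + 11.9), high sugar minus control, after quantile normalization of the 6 arrays. The added constant of 11.9 understates the change of dim genes. Adjusted p values come from limma with Benjamini-Hochberg adjustment over 8387 genes, and a gene is called at adjusted p under 0.05. In wandering larvae 213 genes (2.54%) were called, 107 higher (1.28%) and 106 lower (1.26%) on high sugar food, and 104 of them (1.24%) changed at least 2-fold, 48 higher (0.572%) and 56 lower (0.668%). Counts of called group members below are to be read beside the shares of 1.28% higher and 1.26% lower. The median change of all tested genes was -0.01, and that of the called genes, in absolute size, was 0.99. At an unadjusted p under 0.05 there were 1524 genes (18.2%), and the 3 arrays of one diet lay wholly apart from the 3 of the other for 1854 genes (22.1%), 1059 higher (12.6%) and 795 lower (9.48%). When genes were split by level into 4 bins of equal size, the most intense bin held 92 of the called genes, against 36 to 45 in each of the others, and its median standard deviation was 0.13 in high sugar larvae and 0.10 in control larvae, the smallest of the 4 bins. Without high sugar array 2 the count was 474, without control array 3 it was 111, without control array 2 it was 128 and without high sugar array 1 it was 130. Of the 213 genes, 92 stayed called in the same direction whichever array was left out, 43 higher and 49 lower.

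**Figure D1:**
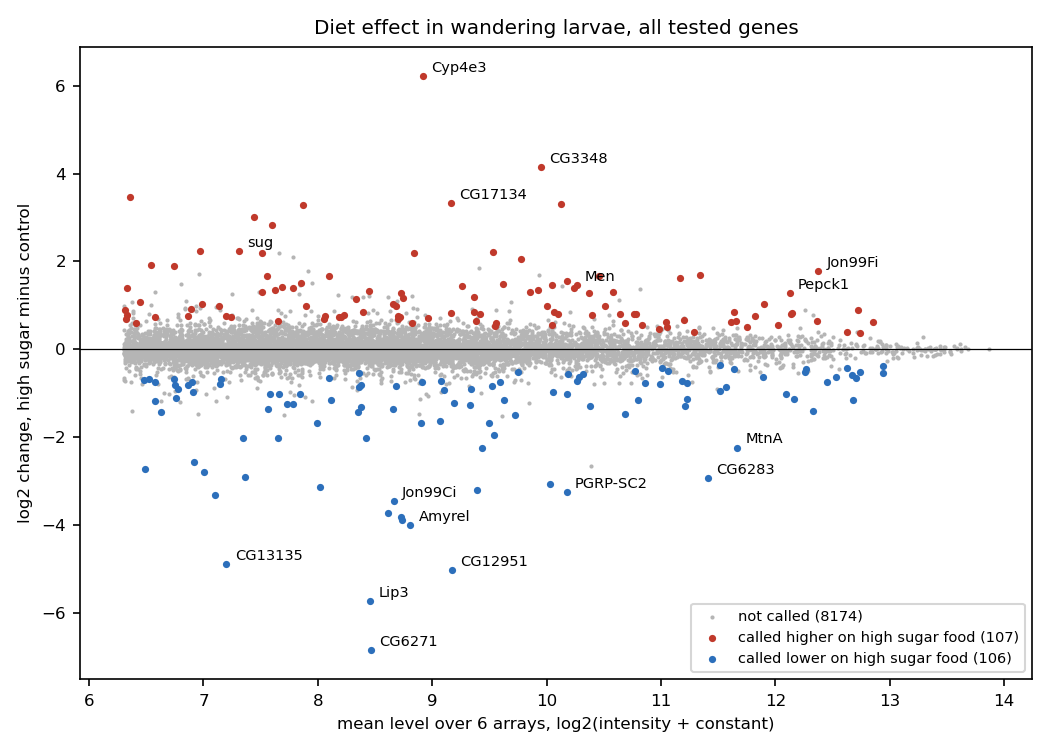
Change of each of the 8387 tested genes (vertical axis, log2 high sugar minus control) against its mean level over the 6 wandering arrays (horizontal axis, log2 of intensity plus the constant), 1 point per gene; red and blue points are the 107 genes called higher and the 106 called lower. Most points lie close to 0, and the called decreases reach further (CG6271 at -6.85) than the increases (Cyp4e3 at 6.23).

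The largest increase was that of Cyp4e3, a cytochrome P450 gene of the CYP4 family, whose best known members hydroxylate fatty acids. Values of 5045, 2663 and 5418 in high sugar larvae stood against 43.1, 37.1 and 52.0 in control larvae for Cyp4e3. All high sugar arrays were far above all control arrays, with array 2 the lowest, and the change was 6.23 (SE 0.25, adjusted p = 3.98e-06). CG3348 read 4805, 2452 and 5902 on high sugar arrays 1 to 3, against 252, 221 and 187 on control arrays 1 to 3. The change of 4.16 (SE 0.28, adjusted p = 9.28e-05) again had high sugar array 2 nearest to control. For CG17134, which encodes a predicted aspartic peptidase, larvae reared on high sugar had 1619.7, 1537 and 2251, against 291, 194 and 79.1 in control-reared larvae. On the log2 scale its levels lay close together on high sugar food and were scattered over a wider range on control food. The change was 3.33 (SE 0.37, adjusted p = 0.00203).

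The genes CG13946 and CG13947, next to each other on chromosome arm 2L, both rose. The intensity of CG13947 was 3536, 3189.9 and 3897 in high sugar larvae, against 550.2, 278 and 255 in control larvae. At CG13946, the high sugar arrays gave 426, 145 and 292 and the control arrays 19.1, 12.1 and 7.82. In control larvae it lay near the floor of the array. Neither gene's groups overlapped, and the changes were 3.30 (adjusted p = 1.88e-04) and 3.46 (adjusted p = 9.57e-04), that of CG13946 being 2.15 with a constant 5 times larger. ng2, a new glue gene of the salivary gland, was measured at 578, 299 and 674 in high sugar larvae and at 42.9, 60.9 and 46.6 in control larvae. Its groups did not overlap, and the change was 3.00 (SE 0.26, adjusted p = 4.88e-04). The desaturase gene CG9743 rose by 2.20, CG10182 by 2.23 and CG15255 by 2.24 (adjusted p = 0.00214, 0.00713 and 0.00220). The increases of CG14205 (3.29) and vanin-like (2.84) rested on fewer arrays. CG14205 had intensities of 1616, 209 and 1100.3 in high sugar larvae, against 57.3, 93.7 and 45.3 in control larvae. Its call was lost when any array but high sugar array 2 was left out (adjusted p = 0.0724 to 0.105), and that of vanin-like when control array 3 or control array 2 was left out (adjusted p = 0.0512 to 0.0532), while without high sugar array 2 the changes were 4.15 and 3.46.

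The largest decrease was that of CG6271, a predicted secreted lipase of the pancreatic type. The values were 26.4, 16.5 and 21.8 in high sugar larvae, against 3829.7, 4312 and 3232 in control larvae, for CG6271. The lowest control array was far above the highest high sugar array, and the change was -6.85 (SE 0.14, adjusted p = 5.43e-08). Its high sugar values lay near the floor, and the change was -7.44 to -5.57 over the alternatives in processing. Lip3, an acid lipase gene, read 48.3, 42.3 and 23.8 on high sugar arrays 1 to 3, against 2761, 3013 and 2003 on control arrays 1 to 3. Every high sugar array was near the floor, and the change was -5.72 (SE 0.22, adjusted p = 3.98e-06). For CG12951, which encodes a predicted serine peptidase, larvae reared on high sugar had 82.5, 132 and 66.2, against 3194, 3271 and 3332 in control-reared larvae. Here too the diets were far apart, and the change was -5.03 (SE 0.21, adjusted p = 5.36e-06). The intensity of CG13135 was 14.4, 15.6 and 16.0 in high sugar larvae, against 1081, 1554 and 306 in control larvae. Control array 3 was the lowest of its group there but still far above the high sugar arrays, and the change was -4.89 (SE 0.46, adjusted p = 8.14e-04). The high sugar values of CG13135 lay near the floor, and its change was -5.62 to -3.53 over the alternatives in processing. The predicted serine peptidase gene CG9672 and the gene Jig fell too, with changes of -3.89 and -3.81 (adjusted p = 9.28e-05 and 1.88e-04).

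**Figure D2:**
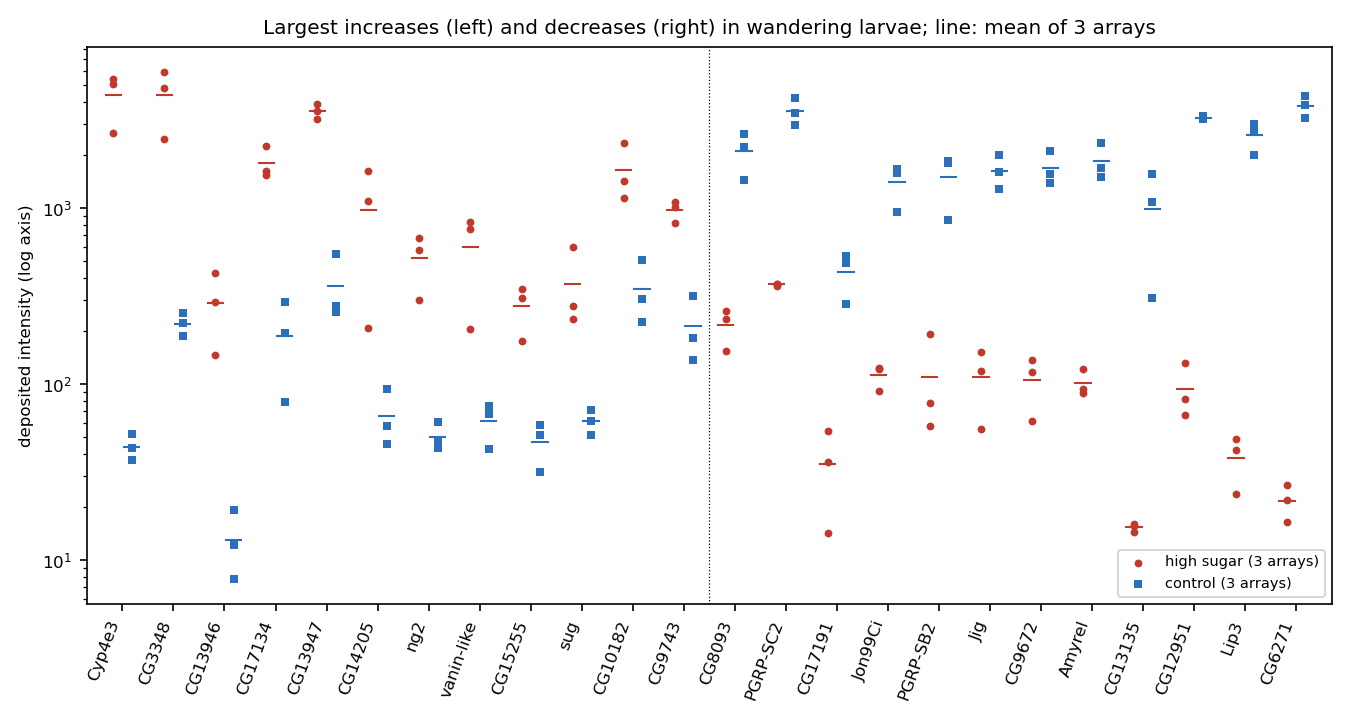
Deposited intensity (vertical log axis) on each of the 6 arrays for the 12 largest increases (left) and the 12 largest decreases (right) among called genes whose groups did not overlap; red circles are high sugar arrays, blue squares control arrays and lines the means of 3 arrays. For Cyp4e3 the high sugar arrays lie at 2663 to 5418 and the control arrays at 37.1 to 52.0, and for CG6271 the high sugar arrays lie at 16.5 to 26.4 and the control arrays at 3232 to 4312.

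Lipases release fatty acids from dietary and stored lipid. Of 22 lipases of gut and lysosome on the array, 10 passed the filter on dim genes. Of these 10, 1 rose and 6 fell, against 1.28% and 1.26% of all tested genes, and the median change was -1.98. The filter drops genes that are dim on both diets and can keep those bright on 1 diet, so the share called depends on it. At CG6283, in a cluster of pancreatic-type lipase genes, the high sugar arrays gave 1025, 921 and 949 and the control arrays 7954, 7255 and 7662. The change of -2.94 had a small error for its size (SE 0.09, adjusted p = 9.74e-07), and the groups were far apart. CG17191, of the same type and beside CG6283 in the annotation, fell by 3.32 (adjusted p = 0.00106), and the acid lipase gene CG8093 fell by 3.20 (adjusted p = 1.38e-04). The neighbours CG6296 and CG6295, named after their values were seen, went in opposite directions, with changes of 1.69 and -1.02 (adjusted p = 0.00406 and 0.0187). CG6296 was measured at 6189, 4008 and 4253 in high sugar larvae and at 1881, 1617 and 1014 in control larvae. Its groups did not overlap either. Of the 3 lipase genes that did not pass, CG10116 had a change of -0.21 and magro (mag) of -0.19. Of the 7 calls, 6 stayed whichever array was left out.

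Jonah genes encode chymotrypsin-like peptidases of the gut. Of 13 tested, 1 rose and 7 fell, against 1.28% and 1.26% of all tested genes, with a median change of -0.53. Of these 8 calls, 7 stayed whichever array was left out. Jon99Ci had intensities of 123, 90.6 and 122 in high sugar larvae, against 1577, 1666 and 952 in control larvae. Values of 420.1, 232 and 306 in high sugar larvae stood against 2042, 1275 and 1354 in control larvae for Jon44E. In both genes the groups were far apart, and the changes were -3.46 (SE 0.19, adjusted p = 3.36e-05) and -2.25 (SE 0.23, adjusted p = 0.00119). Jon25Bi read 2515, 1685 and 2089.9 on high sugar arrays 1 to 3, against 4884, 3783 and 3489 on control arrays 1 to 3. Its 3 high sugar values were all below the control values, and the change was -0.94 (adjusted p = 0.0152). The exception was Jon99Fi. For Jon99Fi, larvae reared on high sugar had 10198, 9087 and 9779, against 3456, 2693 and 2533 in control-reared larvae. Its high sugar arrays were all far above control, and the change was 1.77 (SE 0.11, adjusted p = 7.08e-05). Jonah genes are near-identical to one another in places, so probe sets may read more than 1 of them. The summed intensity over the 13 genes was 64893, 61766 and 58782 in high sugar larvae, against 79597, 72942 and 66878 in control larvae, a smaller difference than that of the single genes.

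Trypsins, which cut beside basic residues, held 2 higher and 0 lower of 7, against 1.28% and 1.26% of all tested genes. The intensity of alphaTry was 10013, 9583 and 7986 in high sugar larvae, against 6085, 6527 and 5251 in control larvae. Every high sugar array was above every control array, a change of 0.63 (SE 0.08, adjusted p = 0.00399). betaTry gave 0.65 (adjusted p = 0.0460), a call lost when high sugar array 3, high sugar array 1, control array 3 or control array 2 was left out (adjusted p = 0.0621 to 0.139). thetaTry had a change of 1.19 that did not pass (adjusted p = 0.174). The summed intensity of 9 midgut markers was 26741 to 32847 in high sugar larvae and 23591 to 31194 in control larvae. Of the 9, 2 were called higher (alphaTry and betaTry) and 2 lower (Jon99Ci and Jon25Bi). The called markers are thus genes described above, so the list is no separate gauge of midgut content. The part of midgut content in these results was not tested.

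Among 10 maltases and amylases, 1 rose and 3 fell, against 1.28% and 1.26% of all tested genes, with a median change of -0.07. At Amyrel, an amylase-related gene known to be repressed by sugar, the high sugar arrays gave 93.3, 122 and 89.1 and the control arrays 1689.6, 2353 and 1494. The groups were far apart, a change of -4.01 (SE 0.18, adjusted p = 6.55e-06). The other 3 calls depended on single arrays. The maltase Mal-A7 rose by 1.40 (adjusted p = 0.0221), lost when high sugar array 3, high sugar array 1, control array 3 or control array 2 was left out (adjusted p = 0.0546 to 0.0770), and the change was 0.89 with a constant 5 times larger. Mal-A4 fell by 2.01 (adjusted p = 0.0418), lost when high sugar array 3, high sugar array 2, high sugar array 1 or control array 2 was left out (adjusted p = 0.0668 to 0.113). tobi, a glucosidase gene known as a target of insulin-like and adipokinetic signals, fell by 1.67 (adjusted p = 0.0454). That call was lost when any array but control array 3 was left out (adjusted p = 0.0681 to 0.123). Mal-A8, at 0.94, and Mal-A1, at 0.44, did not pass.

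Chitin-degrading enzymes and the lining of the gut gave 2 lower of 22 chitin genes and 1 higher and 1 lower of 20 peritrophic matrix and mucin genes. Of all tested genes, 1.28% were called higher and 1.26% lower, so these small counts describe single genes. In each list 1 of the 2 calls stayed whichever array was left out. Cht4, a chitinase gene, was measured at 249.6, 244 and 289 in high sugar larvae and at 1136, 876 and 615 in control larvae. The groups did not overlap, a change of -1.67 (SE 0.19, adjusted p = 0.00208). Its neighbour Cht9 fell by 3.12 (adjusted p = 0.00965), lost without control array 2 (adjusted p = 0.0512). Muc11A, a mucin gene, had intensities of 4765, 4878 and 4506 in high sugar larvae, against 3381, 2712 and 2363 in control larvae. Its groups lay apart, and the change was 0.76 (SE 0.10, adjusted p = 0.00600). The obstructor gene obst-J fell by 0.49 (adjusted p = 0.0346), lost when high sugar array 1, control array 3, control array 2 or control array 1 was left out (adjusted p = 0.0811 to 0.168).

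The lipogenesis list held 4 higher and 0 lower of 12, against 1.28% and 1.26% of all tested genes, with a median change of 0.23. The values were 234, 276 and 599 in high sugar larvae, against 51.5, 70.7 and 61.7 in control larvae, for sug, the sugar-induced zinc finger gene. High sugar array 3 was the highest, the groups did not overlap, and the change was 2.24 (SE 0.29, adjusted p = 0.00411). AcCoAS, the gene of acetyl-CoA synthetase, which makes the acetyl-CoA used for fatty acids, read 2139.6, 1134 and 2999 on high sugar arrays 1 to 3, against 749, 651 and 594 on control arrays 1 to 3. For Desat1, the gene of a fatty acid desaturase, larvae reared on high sugar had 5572, 4221 and 6679, against 3204, 2670.4 and 2268 in control-reared larvae. The intensity of Mondo was 893, 686 and 1126 in high sugar larvae, against 513, 480.3 and 433 in control larvae. High sugar array 2 was the lowest of its group for these 3 genes, with changes of 1.56, 1.03 and 0.86 (adjusted p = 0.0221, 0.0161 and 0.0249). The call of AcCoAS was lost when high sugar array 1, control array 3 or control array 2 was left out (adjusted p = 0.0754 to 0.0884), that of Desat1 when high sugar array 1, control array 3 or control array 2 was left out (adjusted p = 0.0572 to 0.0697) and that of Mondo when high sugar array 3, high sugar array 1, control array 3 or control array 2 was left out (adjusted p = 0.0658 to 0.108). At FASN1, the gene of fatty acid synthase, the high sugar arrays gave 2602, 1365 and 3381 and the control arrays 1513, 1142 and 721. Its control arrays reached above high sugar array 2, so the groups overlapped, and 1.13 did not pass (adjusted p = 0.118). Without high sugar array 2 the adjusted p of FASN1 was 0.0210, and with any other array left out it was 0.0909 to 0.340. Acetyl-CoA carboxylase (ACC), the enzyme that commits acetyl-CoA to fatty acids, had a change of 0.19 (adjusted p = 0.454). The 12 genes summed to 15457, 11647 and 19846 in high sugar larvae, against 10475, 9237 and 8107 in control larvae.

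Malic enzyme (Men), which makes NADPH for fatty acid synthesis, was the 1 called gene of 8 for NADPH supply. Men was measured at 2079.8, 1534 and 2442 in high sugar larvae and at 941, 697 and 596 in control larvae. The groups did not overlap, and the change of 1.45 (SE 0.18, adjusted p = 0.00360) stayed called whichever array was left out.

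Genes of gluconeogenesis, trehalose and glycogen gave 4 higher and 0 lower of 16, against 1.28% and 1.26% of all tested genes. Their median change was 0.25. Pepck1, the gene of phosphoenolpyruvate carboxykinase, the first committed enzyme of gluconeogenesis, had intensities of 6924, 7472 and 6542 in high sugar larvae, against 2910.1, 2716 and 2891 in control larvae. The replicates of each diet lay within a narrow range, with a change of 1.28 (SE 0.08, adjusted p = 9.28e-05). Values of 4447, 4788 and 3797 in high sugar larvae stood against 2205, 2506 and 2479 in control larvae for Pepck2, its paralog. Its groups were apart too, and the change was 0.84 (SE 0.12, adjusted p = 0.00737). Tps1, the gene of trehalose-6-phosphate synthase, an enzyme on the way to the blood sugar trehalose, read 489, 448 and 487 on high sugar arrays 1 to 3, against 236, 207 and 166 on control arrays 1 to 3. Its groups lay apart as well, a change of 1.15 (SE 0.14, adjusted p = 0.00254). Fructose-1,6-bisphosphatase (fbp) had a change of 0.72 that did not pass (adjusted p = 0.0571). Without high sugar array 2 its adjusted p was 0.0139, and with any other array left out it was 0.0957 to 0.232. In the fit to all 12 arrays it was 0.00311. Glycogen phosphorylase (Glyp) had a change of 0.29. The trehalose transporter gene Tret1-1 rose by 0.40 (adjusted p = 0.0343), lost when any array but high sugar array 2 was left out (adjusted p = 0.0711 to 0.122). Of the 9 glycolysis genes, 0 were called, 0 passed at an unadjusted p under 0.05, and the median change was 0.09.

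Triglyceride and droplet genes held 2 higher and 0 lower of 11, against 1.28% and 1.26% of all tested genes. For Lsd-1, the perilipin gene whose product coats lipid droplets, larvae reared on high sugar had 3755, 4078 and 3842, against 2584, 2797 and 2248 in control-reared larvae. The groups did not overlap, a change of 0.61 (SE 0.08, adjusted p = 0.00444). Seipin, a droplet-forming protein of the endoplasmic reticulum, rose by 0.76 (adjusted p = 0.0334), lost when any array but high sugar array 2 was left out (adjusted p = 0.0503 to 0.139). Against the same shares of all tested genes, 2 of 16 genes of lipolysis and fatty acid oxidation rose and 0 fell. They were yip2, a thiolase gene, with 0.64 (adjusted p = 0.0116), and Acox57D-d, which encodes an acyl-CoA oxidase, with 0.90 (adjusted p = 0.0395). The first was lost when high sugar array 1 or control array 3 was left out (adjusted p = 0.0537 to 0.0570), the second when high sugar array 3, high sugar array 1, control array 3 or control array 2 was left out (adjusted p = 0.101 to 0.155), and with a constant 5 times larger the change of Acox57D-d was 0.56. The triglyceride lipase brummer (bmm) had a change of 0.54 (adjusted p = 0.100).

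Of 17 genes of insulin, FOXO, TOR and adipokinetic hormone signalling, 1 passed. The intensity of AkhR, the receptor gene of the hormone that mobilizes stored fat and sugar, was 338, 256 and 341 in high sugar larvae, against 128, 95.3 and 112 in control larvae. Its groups did not overlap, a change of 1.35 (SE 0.15, adjusted p = 0.00214). A second probe set of AkhR had a change of -0.02, and with the mean of both the gene did not pass (adjusted p = 0.0948). The insulin receptor gene InR had -0.08 (adjusted p = 0.751), the insulin-binding ImpL2 0.01 (adjusted p = 0.978) and the insulin-like peptide gene Ilp2 -0.42 (adjusted p = 0.199). Glycerol-3-phosphate dehydrogenase Gpdh1 rose by 1.49 (adjusted p = 0.0383) and sorbitol dehydrogenase Sodh1 fell by 1.22 (adjusted p = 0.0346). Gpdh1 was lost when any array but high sugar array 2 was left out (adjusted p = 0.0627 to 0.139), and Sodh1 when high sugar array 3, high sugar array 1 or control array 2 was left out (adjusted p = 0.0849 to 0.107).

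Oxidative phosphorylation, the respiratory chain and ATP synthase of mitochondria, showed many small differences and no call. Of 65 genes, 62 had a positive change, with a median of 0.20 against -0.01 for all tested genes. Of all uncalled genes, 3921 had a positive and 4253 a negative change. An unadjusted p under 0.05 was reached by 25 of the 62, against 18.2% of all tested genes in either direction. The groups lay apart and higher for 22 genes, against 12.6% of all tested genes. The summed intensity was 143642, 126252 and 146528 in high sugar larvae, against 128238, 123580 and 112015 in control larvae. High sugar array 2 lay below control array 1, so the sums overlapped, and without high sugar array 2 there were 8 calls, all higher, where 2.74% of all tested genes were called higher. The largest changes were those of ATPsynCF6L (0.55, adjusted p = 0.0913) and COX6CL (0.50, adjusted p = 0.139). The 69 genes of the mitochondrial ribosome, which translates part of that chain, had a median of 0.00 with 0 calls and 0 genes at an unadjusted p under 0.05.

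**Figure D3:**
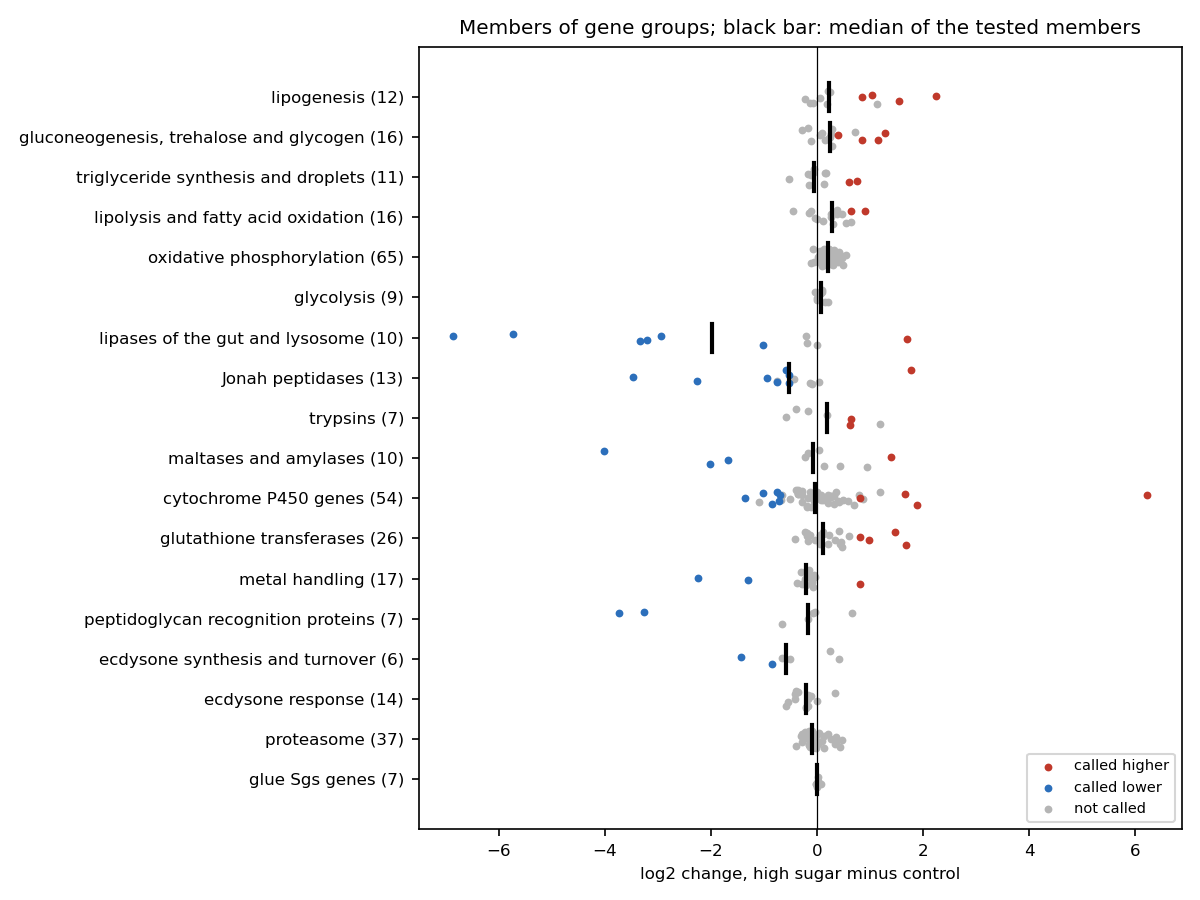
Log2 change, high sugar minus control (horizontal axis), of each tested member of 18 gene groups, with the number tested in parentheses; red points were called higher, blue called lower and grey not called, and black bars are medians. Called decreases gather in the lipases (median -1.98) and Jonah peptidases (median -0.53), while the 65 oxidative phosphorylation genes form a narrow cloud around 0.20 with no call.

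Cytochrome P450 genes, whose products oxidize hormones, fatty acids and foreign compounds, held 4 higher and 6 lower of 54. Of all tested genes, 1.28% were called higher and 1.26% lower, and the median change of the 54 was -0.04. At Cyp4d1, the high sugar arrays gave 2587, 2609.7 and 2274 and the control arrays 1041, 691 and 662. Cyp9b1 was measured at 214, 129 and 271 in high sugar larvae and at 53.1, 52.2 and 28.4 in control larvae. For both genes the groups lay apart, with high sugar array 2 the lowest of its group for Cyp9b1, and the changes were 1.66 (SE 0.17, adjusted p = 0.00119) and 1.89 (SE 0.27, adjusted p = 0.00737). Of the 10 calls, 3 stayed whichever array was left out, Cyp4e3, Cyp4d1 and Cyp9b1. Leaving out high sugar array 2 and control array 1, the arrays farthest from their groups, was added after the data were seen. That choice narrows the spread within groups, which favours more calls, so its counts are only a description. The counts were then 11 higher and 5 lower, where 3.65% of all tested genes were called higher and 3.31% lower.

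Glutathione transferases, which attach glutathione to reactive compounds, held 4 higher and 0 lower of 26, against 1.28% and 1.26% of all tested genes. GstE9 had intensities of 559, 371 and 538 in high sugar larvae, against 158, 172 and 98.7 in control larvae. The groups did not overlap, and the change of 1.67 (SE 0.21, adjusted p = 0.00391) was the 1 of these calls that stayed whichever array was left out. With the mean of the probe sets of GstE9, its change was 0.93 (adjusted p = 0.0236). GstE7 rose by 1.47 and GstD9 by 0.98 (adjusted p = 0.0384 and 0.0147). GstE7 was lost when high sugar array 3, high sugar array 1, control array 3 or control array 2 was left out (adjusted p = 0.100 to 0.139), and GstD9 without high sugar array 1 (adjusted p = 0.0519).

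Of the 3 tested genes of metallothioneins, small cysteine-rich proteins that bind copper, zinc and cadmium, MtnA and MtnD fell, while MtnB had a change of -0.09 and did not pass (adjusted p = 0.895). The values were 1428, 1265 and 1709 in high sugar larvae, against 6897, 8149.5 and 6191 in control larvae, for MtnA. MtnD read 1436, 1343 and 1653 on high sugar arrays 1 to 3, against 4087, 3547 and 3365 on control arrays 1 to 3. The diets were wide apart in both genes, and the replicates of each diet lay close together, with changes of -2.24 (SE 0.11, adjusted p = 8.91e-06) and -1.30 (SE 0.09, adjusted p = 9.28e-05). Of the 17 metal handling genes 1 rose and 2 fell, against 1.28% and 1.26% of all tested genes. A negative change was seen for 16 of the 17, with a median of -0.20 against -0.01 for all tested genes. The 1 that rose, the iron carrier transferrin Tsf1, had a change of 0.81 (adjusted p = 0.0475), lost when any array but control array 1 was left out (adjusted p = 0.0545 to 0.169). The zinc transporters Zip89B and Zip71B had -0.37 and -0.29 and did not pass (adjusted p = 0.143 and 0.277).

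Peptidoglycan recognition proteins bind or cut bacterial cell wall. Of 7 tested genes, 2 fell and 0 rose, against 1.26% and 1.28% of all tested genes. For PGRP-SC2, the gene of a gut amidase that cleaves peptidoglycan, larvae reared on high sugar had 372, 362 and 369, against 4203, 3443 and 2957 in control-reared larvae. The 3 high sugar arrays were almost equal and far below control, a change of -3.26 (SE 0.12, adjusted p = 2.66e-06). The intensity of PGRP-SB2 was 78.2, 57.7 and 191 in high sugar larvae, against 852, 1849 and 1809 in control larvae. The groups did not overlap, a change of -3.73 (SE 0.41, adjusted p = 0.00188). PGRP-LB had -0.65 and PGRP-SB1 0.66, and neither passed (adjusted p = 0.166 and 0.216). Of 9 antimicrobial peptide and Bomanin genes, 0 were called and 1 passed at an unadjusted p under 0.05. Without high sugar array 2 and control array 1, a setting added after the data were seen, 3 were called higher and 2 lower. In that setting 3.65% of all tested genes were called higher and 3.31% lower. It leaves out the arrays farthest from their groups, which favours more calls, so these counts are only a description.

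Ecdysone is made from cholesterol in the ring gland and turned into its active form, 20-hydroxyecdysone, in other tissues by shade (shd). Of 6 genes of ecdysone synthesis and turnover, 2 fell and 0 rose, against 1.26% and 1.28% of all tested genes. The summed intensity of the 6 genes was 1887, 1798 and 1790 in high sugar larvae, against 2596, 2481 and 2423 in control larvae. At Eo, the gene of ecdysone oxidase, which inactivates the hormone, the high sugar arrays gave 51.7, 55.7 and 40.6 and the control arrays 179, 130.4 and 143. The groups did not overlap, a change of -1.43 (SE 0.17, adjusted p = 0.00250). shd was measured at 633, 521 and 472 in high sugar larvae and at 948, 1060.4 and 929 in control larvae. Its groups did not overlap, and the change of -0.84 (adjusted p = 0.0184) was lost when control array 3 or control array 2 was left out (adjusted p = 0.0716 to 0.0761). The ring gland genes spok and sad had -0.50 and -0.66 and did not pass (adjusted p = 0.0908 and 0.211). None of the 14 ecdysone response genes was called, and none passed at an unadjusted p under 0.05, though 12 had a negative change. Their median change was -0.20, against -0.01 for all tested genes. Without high sugar array 2, 2 of the 14 were called lower (2.91% of all tested genes were). Without high sugar array 2 and control array 1, 5 were (3.31% of all tested genes were). The second setting was added after the data were seen and leaves out the arrays farthest from their groups, which favours more calls. Over all 6 arrays, Eip78C had -0.55 and Hr4 -0.59 (adjusted p = 0.464 and 0.470).

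Other groups gave few calls, where 1.28% of all tested genes were called higher and 1.26% lower. The alkaline phosphatase Alp4 was the 1 called of 8. Alp4 had intensities of 487, 592 and 578 in high sugar larvae, against 223, 204 and 189.8 in control larvae. Its groups did not overlap, with a change of 1.34 (SE 0.13, adjusted p = 8.14e-04). Amino acid breakdown gave 1 higher and 1 lower of 21, serpins 1 higher of 16, cuticle proteins 1 lower of 28 and sugar transporters 2 higher and 1 lower of 21, and none of these 7 calls stayed under every left-out array. The salivary glue list of 7 Sgs genes had 0 calls and 0 genes at an unadjusted p under 0.05, with changes of -0.02 to 0.08. The storage protein Lsp2 had 0.01 (adjusted p = 0.973). Per array the 7 Sgs genes summed to 59036 to 61750 and the 3 storage protein genes to 28544 to 32188. The highest single value on an array was 14335 to 15489. Whether a ceiling near that value hid changes of these bright genes was not tested. Of the 54 lists of pathways and families, 28 held no called gene, including the citric acid cycle, both ribosomes, ribosome biogenesis, the proteasome, heat shock proteins, the unfolded protein response, antioxidant defence, DNA replication, autophagy, cell death and the circadian clock. Without high sugar array 2, 3 proteasome genes and 2 genes of lysosome and autophagy were called lower, where 2.91% of all tested genes were. Of the 213 called genes, 142 were in none of the lists.

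The spread within a diet was itself uneven. The median standard deviation per gene was 0.16 in high sugar larvae and 0.13 in control larvae, and it was larger on high sugar food for 5174 of 8387 genes (61.7%). Of the 257 genes with a standard deviation over 0.5 on high sugar food, array 2 was the one farthest from the other 2 for 171, and of the 166 such genes on control food, control array 1 was for 92. Values of 286, 36.3 and 522 in high sugar larvae stood against 196, 146 and 17.6 in control larvae for Acbp4, an acyl-CoA binding protein gene. CG9757 read 219.9, 33.2 and 439.8 on high sugar arrays 1 to 3, against 207, 110.1 and 81.2 on control arrays 1 to 3. High sugar array 2 was the lowest of its group in both, as it was for CG4962, CG7465 and CG17105. For BomT2, a gene of the Bomanins, short secreted peptides that the Toll pathway induces, larvae reared on high sugar had 78.1, 61.8 and 123, against 518, 25.8 and 30.2 in control-reared larvae. The intensity of BomBc2 was 81.7, 42.6 and 65.2 in high sugar larvae, against 625, 75.5 and 71.3 in control larvae. Control array 1 was the highest in both, and for CG43085. At Drsl2, a drosomycin-like gene, the high sugar arrays gave 223, 195 and 475 and the control arrays 167, 1801 and 1463. Control array 1 was there the lowest of its group. Of these 9 genes none was called, with changes of 0.97 for Acbp4, -0.01 for BomT2, -1.20 for BomBc2 and -1.47 for Drsl2 (adjusted p = 0.620, 0.999, 0.396 and 0.354). Of the 107 genes called higher, high sugar array 2 was the array nearest to control for 69 (64.5%), and of the 3921 positive genes that were not called it was for 2199 (56.1%). Of the 106 genes called lower, it was nearest to control for 37 (34.9%), against 44 (41.5%) for array 1, while of the 4253 negative genes that were not called it was for 2364 (55.6%).

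**Figure D4:**
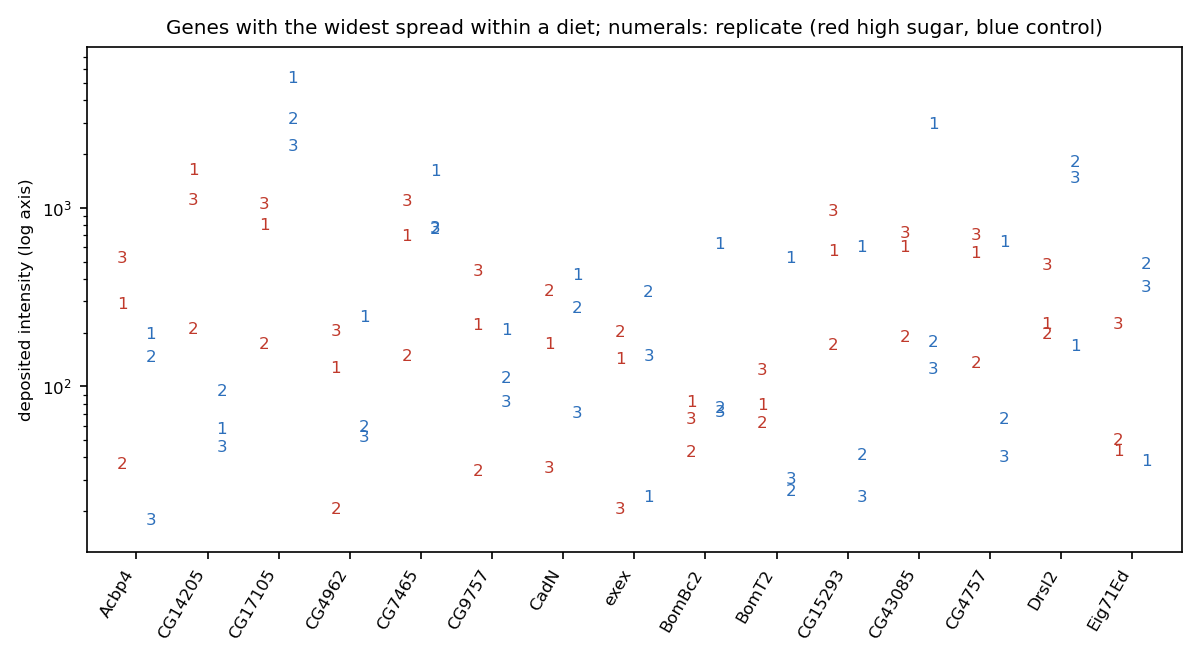
Deposited intensity (vertical log axis) on each array for the genes with the largest standard deviation within a diet, with each array shown by its replicate number, red for high sugar and blue for control. High sugar array 2 is lowest for Acbp4 (36.3) and CG9757 (33.2), and control array 1 is highest for BomT2 (518) and BomBc2 (625).

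Called genes were also counted among pairs of protein-coding genes that are immediate neighbours in the annotation and were both tested. Of 5465 neighbouring pairs, 245 held a called gene and 17 held a pair of called genes, 14 changing in the same direction and 3 in opposite directions. The pairs of one direction included CG13946 and CG13947, ng2 and CG14265, Cht4 and Cht9, CG17191 and CG6283, and CG12951 and the predicted peptidase gene CG16749. The 3 opposite pairs were CG6296 and CG6295, CG5002 and Sardh, and CG5773 and CG5770.

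The response of wandering larvae was then set against the 12 h diet effect of feeding mid-L3 larvae, in a fit to all 12 arrays. The groups compared differ in stage, in feeding and in the length of exposure, which cannot be told apart. In that fit 535 genes (6.38%) were called for diet in wandering larvae, and the difference of the diet effects passed for 650 of 8387 genes (7.75%). The genes called in wandering larvae were chosen for a large effect there, which favours a difference, so their counts are a description. Of the 103 of them that were called higher and also tested over 12 arrays, 53 passed for the difference, 45 were called higher in mid-L3 larvae too and 7 were called lower there, where 7.52% of all tested genes were called higher and 6.55% lower. Of the 101 called lower, 64 passed for the difference, 33 were called lower in mid-L3 larvae and 14 were called higher. Cyp4e3 had a change of 6.41 in wandering and 0.12 in mid-L3 larvae, CG6271 -6.94 and -0.66, PGRP-SC2 -3.55 and -0.04, and MtnA -2.35 and -0.37. For sug the changes were 2.19 and 2.35 and for CG8093 -3.40 and -3.56, differences that did not pass (adjusted p = 0.837 and 0.874). Pepck1 had 1.31 and -0.19 (adjusted p of the difference = 6.82e-05), Men 1.59 and 0.41 (0.00547) and Tsf1 0.88 and -0.85 (0.00151).

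**Figure D5:**
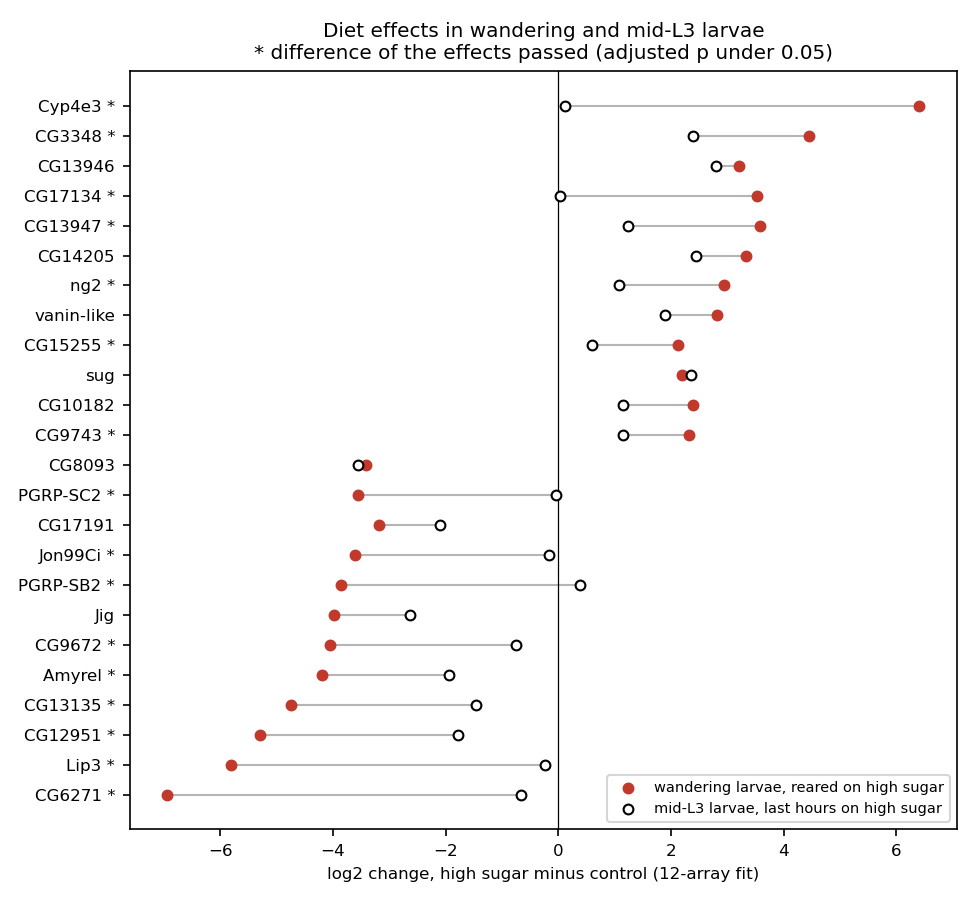
Log2 change, high sugar minus control (horizontal axis), of the 24 largest changes of wandering larvae, from the fit to 12 arrays; filled red circles are wandering larvae, open circles mid-L3 larvae, and asterisks mark the 16 genes whose diet effects differed. The open circle of Cyp4e3 lies at 0.12 and that of Lip3 at -0.23, while for sug and CG8093 the pair of circles nearly coincides.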

How the data were processed

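Total RNA of whole larvae (2 ug each) was turned into biotin-labelled cRNA and hybridised to Affymetrix Drosophila arrays, per the labels' protocols. The authors deposited a linear intensity for each probe set on each array. The sources used here do not give how probes were summarized, normalized and filtered. No detection calls were used, so whether dim values lay above background was not determined. Precision is limited by the number of arrays.

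Of 18952 probe sets, 183 array controls were left out, 13647 had 1 gene in the platform's table, 402 had several and were left out, and 4720 were unlisted and left out. Symbols were updated for 13544 and kept for 103. Each of the resulting 11982 genes was represented by its most intense probe set, and the dimmest 30% by mean were dropped, so 8387 genes were tested. Intensities were transformed as log2(intensity + 11.9), the constant being the 20th percentile of the 6 arrays, and quantile normalized over the 6 arrays. limma 3.58.1 in R 4.3.3 (lmFit, eBayes with an intensity trend) gave moderated tests with 4 residual degrees of freedom, adjusted by Benjamini-Hochberg at 0.05. The difference of the diet effects came from 1 fit to all 12 arrays, with a constant of 12.8 and 8 residual degrees of freedom. The fit was tested on simulated data with known changes. The plots used Python 3.11.15 and matplotlib 3.10.9.

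The members and the 54 gene lists and 11 marker lists were chosen with earlier results of these data known. Genes were named by rule: the 12 largest increases and 12 largest decreases among called genes whose groups did not overlap, up to 3 called members per list, 32 genes of sugar, fat and larval biology whatever their change (27 tested), the 8 genes with the widest spread in each diet, and the 2 largest uncalled changes per list. The labels call the samples biological replicates and do not say whether same-numbered samples share a day. Alternatives were the deposited values, other normalizations, constants and filters, other ways to combine probe sets, all 12 arrays, array weights, a block for the replicate number, other variance priors, a 2-fold condition and each array left out. Leaving out high sugar array 2 together with control array 1 was added after the data were seen. These were the arrays farthest from their groups, so that setting favours more calls. Promoter sequences were not used here.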

Additional observations from a re-analysis of the deposited data

Results flagged for a closer look

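For 16 of the 24 largest changes, the diet effect of wandering larvae differed from that of mid-L3 larvae after 12 h on high sugar food, by the interaction term of limma over all 12 arrays (adjusted p over 8387 genes). These 24 genes were chosen for their effect in wandering larvae, which favours such a difference. The values are the wandering change minus the mid-L3 change on the log2 scale. Among the increases, the difference was 6.29 for Cyp4e3 (SE 0.32, adjusted p = 3.80e-07), 3.49 for CG17134 (SE 0.44, adjusted p = 3.32e-04), 2.34 for CG13947, 2.06 for CG3348, 1.86 for ng2, 1.53 for CG15255 and 1.16 for CG9743. The call of CG9743 was lost with the values as deposited and with the replicate block, and that of CG3348 without wandering control array 3, wandering high sugar array 1 or mid-L3 high sugar array 1 (adjusted p = 0.0509 to 0.0521). Among the decreases, it was -6.28 for CG6271 (SE 0.51, adjusted p = 1.12e-05), -5.57 for Lip3 (SE 0.44, adjusted p = 1.06e-05), -4.25 for PGRP-SB2, -3.52 for CG12951, -3.51 for PGRP-SC2 (SE 0.23, adjusted p = 2.09e-06), -3.44 for Jon99Ci, -3.31 for CG9672, -3.29 for CG13135 and -2.26 for Amyrel. Mid-L3 larvae had a change of 0.04 for CG17134, -0.04 for PGRP-SC2, -0.17 for Jon99Ci and 0.39 for PGRP-SB2.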

How the results depend on the processing

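None of the 71 called genes followed one by one changed sign in the 22 alternatives to the 6-array fit (21 planned, 1 added after the data were seen), and 36 were never lost. Of the 12 uncalled genes followed, ImpL2, Lsp2 and NLaz did, at -0.09 to 0.08, -0.05 to 0.06 and -0.49 to 0.03. The count of 213 called genes (107 higher, 106 lower) stayed within 1.5 times under the other normalizations, constants, filters, probe set rules and variance priors, at 173 to 238. It was 535 (300 higher, 235 lower) in 1 fit to all 12 arrays, 1522 (846 and 676) with array weights, 104 (48 and 56) with a 2-fold change as a further condition, which is a subset by construction, and 584 (306 and 278) without high sugar array 2 and control array 1. With 1 array left out, it was 111 to 474, with 48 to 230 higher and 61 to 244 lower, highest without high sugar array 2 and lowest without control array 3. The count for the difference of the diet effects, 650, was 432 to 1275 with 1 array left out, highest without wandering high sugar array 2 and lowest without mid-L3 control array 3. The cause of these shifts was not tested.

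Same-numbered arrays of the diets did not deviate together (correlations of 0.28, -0.16 and -0.25), so the numbers were not taken as pairs. With the replicate block, 169 genes were called (78 higher, 91 lower), of which 158 were shared with the 213, and 556 passed for the difference of the diet effects. The share of promoters with sugar-response motifs, planned as a description, was not run.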
